A study of Homo sapiens with 4 samples.

Results

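The 6 tables of this BisChIP-seq study list 15177 cytosine sites, each counted once per library and motif, and 63 of them were assigned to a ribosomal protein or translation factor gene. A site was counted as such when the symbol of its nearest gene began with RPL, RPS, EEF or EIF followed by a digit (RPLP and RPSA would have been taken too, but no site carried either). The 63 sites belonged to 34 symbols. The prefixes also take in 5 symbols of pseudogenes and 8 of kinases or kinase-like proteins, and these were kept and are described apart. Methylation was measured as the number of reads in which the cytosine had resisted bisulfite conversion, out of all reads that covered it.

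The libraries came from HEK-293T, a human embryonic kidney cell line, transiently transfected with Flag-tagged factors and with DNMT3A-pLX304, a vector for a DNA methyltransferase. One set of cells received GR-pCMV14, for the glucocorticoid receptor (GR), and 4 nM of its ligand dexamethasone 24 h after transfection; the other received BMAL1-pCMV14 and CLOCK-pCMV14, for the pair of factors that drives the circadian clock. Chromatin was precipitated with anti-Flag antibody or with IgG as control, giving 4 libraries, 1 for each factor and antibody. All of them contained the overexpressed methyltransferase, and there was no replicate, so each level below belongs to 1 library and its interval covers counting error only.

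The ribosome is built from a small subunit, which reads the messenger RNA, and a large subunit, which joins the amino acids. Initiation factors place the ribosome at the start codon, and elongation factors carry it along the message. Their genes are transcribed strongly in nearly every cell, and many have left processed pseudogenes, copies made from their messenger RNA and inserted elsewhere in the genome.

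The cytosines lie in the half-sites that GR binds and in the E-box that BMAL1-CLOCK binds. They are shown here with the measured cytosine as the only capital, since all 3 are outside CpG.
GR half-site: agaaCa
GR half-site, opposite strand: tgttCt
E-box: Cacgtg
GR anti-Flag held 33 of the sites, at 21 genes, its IgG control 15 at 11 genes, and BMAL1-CLOCK anti-Flag 15 at 14 genes. The BMAL1-CLOCK IgG table listed 2 cytosines in all, and neither was near such a gene. Coverage was low: 48 of the 63 sites had 4 reads, which is the lowest number the authors kept, 14 had 5 reads and 1 had 36. In the full tables the pooled methylation level was 1.92% for AGAACA and 2.29% for TGTTCT in GR anti-Flag, 7.57% and 6.03% in its IgG control, and 1.23% in BMAL1-CLOCK anti-Flag.

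Methylation at these genes was concentrated in 4 sites. All 4 were TGTTCT cytosines of GR anti-Flag within 5 kb of a transcription start site (TSS), and they lay at EEF1A1 (2 sites), RPL15 and EIF2A. No methylated read was seen at 55 of the 63 sites (87.3%, beside 91.8% of all sites), and the other 4 had 1 methylated read each. None of the sites in the IgG control or in BMAL1-CLOCK anti-Flag reached 50%, the level taken here as highly methylated.

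EEF1A1 encodes the elongation factor that delivers aminoacyl-tRNA to the ribosome. Its first site lay on chromosome 9 at position 134885507 (hg18), 603 bp from the assigned TSS, and all 36 of its 36 reads were methylated (100%, exact Clopper-Pearson 95% interval 90.3 to 100%). The second lay on chromosome 6 at position 74285013, 63 bp from the TSS, with 5 of 5 reads methylated (100%, interval 47.8 to 100%). Both cytosines were thus methylated in every read, the one at high and the other at low coverage. Against the pooled level of the TGTTCT table, the exact one-sided binomial test with Benjamini-Hochberg adjustment over all its sites gave an adjusted p of 3.19e-56 for the chromosome 9 site. The same exact test gave 9.55e-07 for the chromosome 6 site.

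RPL15, a protein of the large subunit, had its site on chromosome 3 at position 23936917, 2583 bp from the TSS. There 4 of 5 reads were methylated (80%, interval 28.4 to 99.5%), with an adjusted p of 0.000138 by the exact binomial test. EIF2A, an initiation factor that can bring the initiator tRNA to the ribosome, had 2 sites on chromosome 3. The one at position 151743503, 3760 bp from the TSS, had 2 of 4 reads methylated (50%, interval 6.76 to 93.2%), and the one at 151763740, 10908 bp away, had 0 of 4. The first passed the binomial test before adjustment (exact p = 0.00305) but not after it (adjusted p = 0.193). Thus 3 of the 4 sites exceeded the background of their table, and EIF2A did not. In the tables' sequence column the half-site was written in capitals at all 4.

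**Figure D1:**
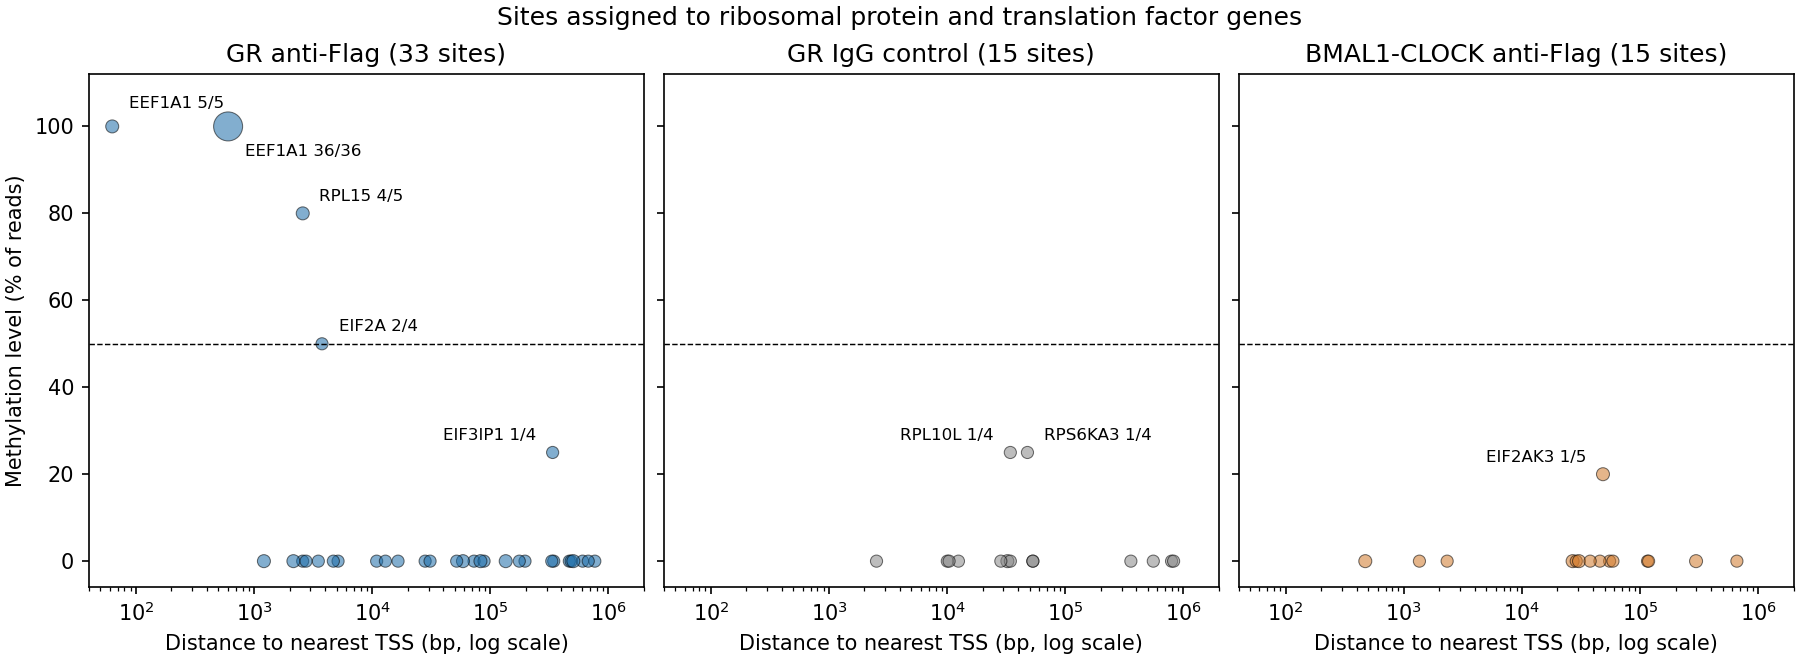
Methylation level (percent of reads, vertical axis) against the distance to the nearest TSS (bp, log scale) for each site at a ribosomal protein or translation factor gene, in 1 panel per library. Point area grows with the number of reads, labels give methylated over all reads for sites with a methylated read, and the dashed line marks 50%; the 4 sites on or above it are all in GR anti-Flag and between 63 and 3760 bp from a TSS.

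In the GR anti-Flag TGTTCT table, 4 of the 28 sites at these genes were highly methylated (14.3%, exact interval 4.03 to 32.7%), whereas 1.55% of all 6958 sites were. By the binomial test 3 of the 28 were above background, beside 1.15% of all sites. Both numbers rest partly on EEF1A1. Of the 3 sites above background, 2 were at EEF1A1, and the other was the RPL15 site with 5 reads. Without the 2 EEF1A1 sites, 2 of 26 were highly methylated (7.69%, interval 0.946 to 25.1%), and the lower bound then lay below the share of all sites. Of the AGAACA sites, 0 of 5 reached 50%, a count that allows shares up to 60% if 3 counts are taken as the limit, beside 1.22% of all sites there. None of the 5 was above background in the exact binomial test after adjustment, beside 1.13% of all AGAACA sites. Before adjustment none was either, beside 14 of 1149.

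The plot of shares by table sets these numbers beside the other libraries. In the IgG control, 0 of 10 AGAACA sites and 0 of 5 TGTTCT sites were highly methylated, beside 2.19% and 2.11% of all sites of those tables. By the limit of 3 counts, 0 of 15 allows a share of up to 20%. None of them was above background by the exact binomial test after adjustment, beside 0.0952% and 0.325% of all sites. At an unadjusted p under 0.05 none was either, beside 62 of 2100 AGAACA and 14 of 615 TGTTCT sites. In BMAL1-CLOCK anti-Flag, 0 of 15 sites were highly methylated, with the same limit, beside 0.115% of all sites. None of the 15 was above background after adjustment, beside 0.0459% of all sites, or before it, beside 121 of 4353. The exact 95% interval of 0 of 15, a wider bound than 3 counts give, reached 21.8% in both libraries, so the 14.3% of the GR TGTTCT sites lay within them, and a difference between libraries was not detectable with so few sites.

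**Figure D2:**
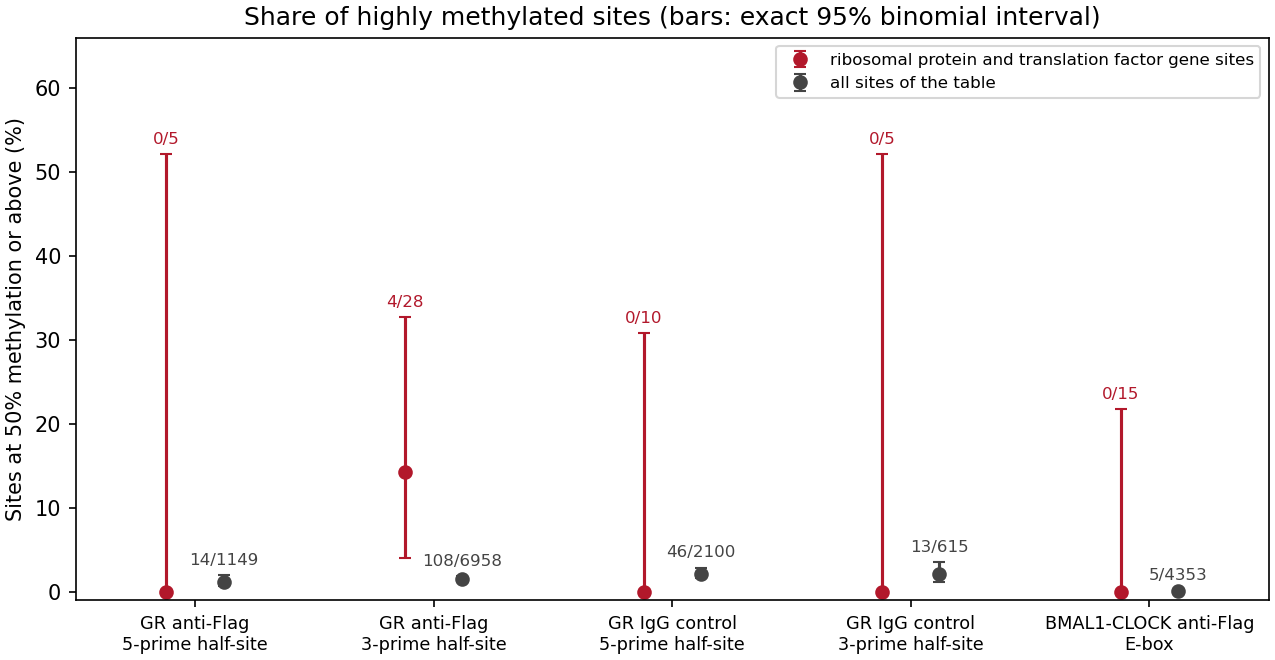
Share of sites at 50% methylation or above (vertical axis, percent) in each table, for sites at ribosomal protein and translation factor genes (red) and for all sites (grey). The 5-prime half-site is AGAACA and the 3-prime half-site TGTTCT; bars are exact 95% binomial intervals and labels give sites at 50% or above over all sites, with the 4 of 28 in GR anti-Flag as the only red value above 0.

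Counted over reads, 48 of 172 reads were methylated at these sites in GR anti-Flag (27.9%), beside 2.21% of reads at all sites of the library. Of those 48, the chromosome 9 site of EEF1A1 gave 36. With both EEF1A1 sites left out the level was 5.34% (7 of 131 reads). In the IgG control it was 3.28% (2 of 61 reads), beside 7.13% at all its sites, and in BMAL1-CLOCK anti-Flag 1.54% (1 of 65 reads), beside 1.23%. No cytosine of these genes was listed in both GR libraries, so these libraries could not be compared at the same site. Shared positions were rare over all sites too, 77 among 8107 sites of GR anti-Flag and 2715 of its IgG control.

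The GR sites were also counted by distance to the TSS, a split chosen after seeing the data, so its intervals are descriptive only. Within 5 kb, 4 of 10 sites were highly methylated (40%, exact interval 12.2 to 73.8%), beside 4.73% of the 783 TGTTCT sites of the table at that distance. Without EEF1A1 the count was 2 of 8 (25%, interval 3.19 to 65.1%). All 10 were TGTTCT sites. Beyond 5 kb, 0 of 23 were, a count that allows up to 13%, beside 1.16% of all sites of the library at that distance. A higher share near a TSS was thus seen over all sites too, with 4.15% of the library's sites within 5 kb at 50% or above.

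The remaining 6 sites within 5 kb had no methylated read. They were RPL13A_6_816, a pseudogene (1212 bp, 5 reads), RPS6KC1, which encodes a kinase-like protein (2153 bp, 5 reads), EIF2AK1, the kinase that slows initiation when heme is scarce (2580 bp, 4 reads), RPL24 of the large subunit (2754 bp, 4 reads), EIF3L, a subunit of the initiation factor eIF3 (3499 bp, 4 reads), and the pseudogene RPL13AP3 (4690 bp, 4 reads). At nearly the same distance, RPL15 at 2583 bp and EIF2AK1 at 2580 bp thus had levels of 80% and 0%, though with 5 and 4 reads their exact intervals overlapped. With 4 reads, a level of 0% allows up to 75%, and with 5 reads up to 60%.

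As to position, 10 of the 33 sites in GR anti-Flag lay within 5 kb of a TSS (30.3%), beside 11.6% of all sites of the library. Their median distance was 51908 bp, beside 42157 bp for all sites, but this order turned on RPS29, without which it was 16554 bp, and on the far sites: within 100 kb the median was 5142 bp over 21 sites, beside 22392 bp for all. Of the 33, 12 lay beyond 100 kb (36.4%, beside 30% of all). The sites thus included both very near and very far ones. In BMAL1-CLOCK anti-Flag 3 of 15 were within 5 kb (20%, beside 7.63%) with a median of 45741 bp, beside 63221 bp. In the IgG control 1 of 15 was (6.67%, beside 6.96%), with a median of 34335 bp, beside 65827 bp. Distances in the tables carry no sign, so a site upstream of the TSS cannot be told from one within the gene.

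**Figure D3:**
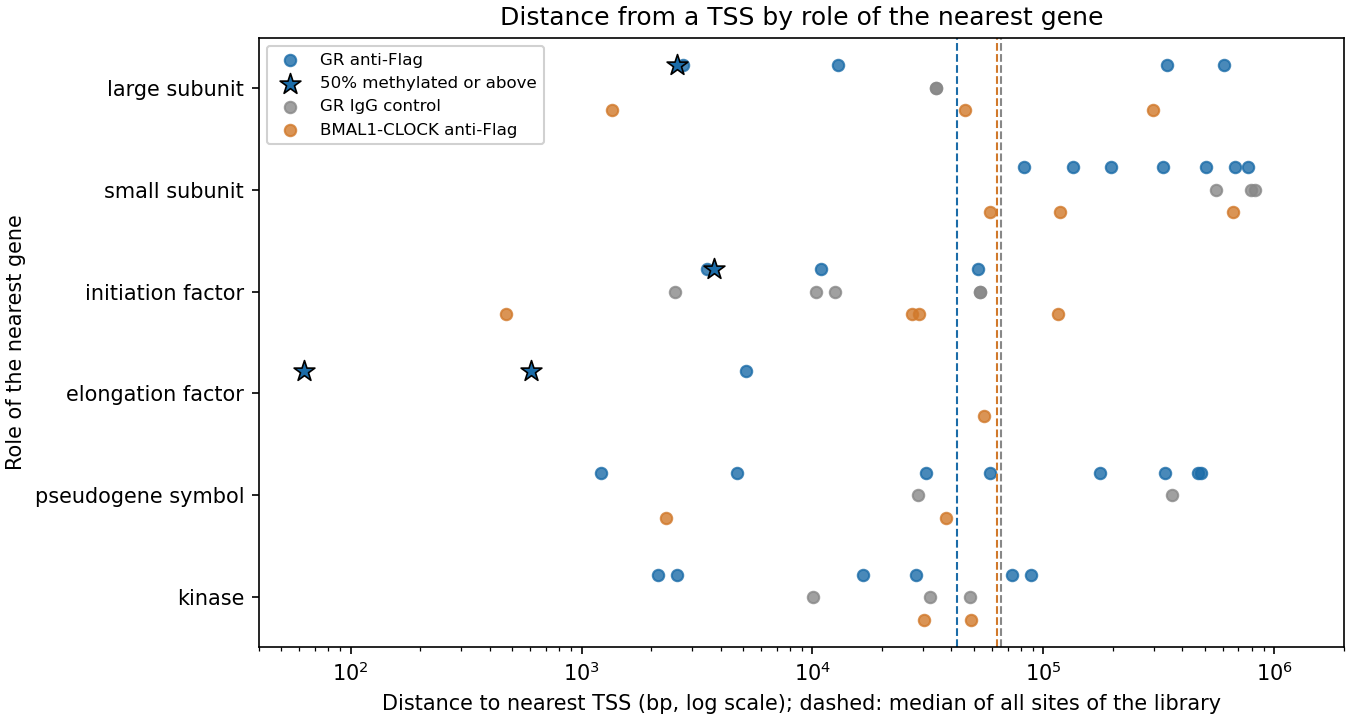
Distance to the nearest TSS (bp, log scale) of each site, by role of the nearest gene (rows) and library (colours); stars mark sites at 50% methylation or above and dashed lines the median distance of all sites in each library. Small-subunit sites all lie beyond 50 kb, and the 4 stars lie in the rows of the large subunit, initiation factors and elongation factors.

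Among large-subunit genes, 1 of 10 sites over all libraries was highly methylated, the one at RPL15 (10%, exact interval 0.253 to 44.5%, beside 1.24% of all sites). RPL10L, a testis-expressed relative of RPL10, had 5 sites in 3 libraries, from 34328 to 604507 bp from its TSS, with 1 methylated read of 21. That read was at 1 of a pair of IgG cytosines 7 bp apart, with 1 of 4 reads methylated (25%, interval 0.631 to 80.6%) at the one and 0 of 4 at the other. RPL24, RPL31 and RPL38 had 1 site each with 0 of 4 reads. RPL22L1, a paralogue of RPL22, had its site 1356 bp from the TSS in BMAL1-CLOCK anti-Flag, also with 0 of 4 reads. Near a TSS, the large subunit thus had a cytosine methylated in most reads and others with no methylated read.

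The small subunit had no methylated read at any of its 13 sites, where 91.8% of all sites had none. RPS29 alone held 11 of these, 6 in GR anti-Flag, 3 in its IgG control and 2 in BMAL1-CLOCK anti-Flag, and 0 of its 46 reads were methylated, so that a level up to 6.52% is allowed by that count. They were spread over chromosome 14 from position 48295583 to 49040343, and lay between 82501 and 827261 bp from the TSS, so RPS29 was the nearest gene to a long stretch rather than the place of the sites. RPS15A, at 58931 bp with 4 reads, and RPS23, at 135007 bp with 5 reads, had 1 site each. Without RPS29, 37% of the remaining 27 sites of GR anti-Flag lay within 5 kb.

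Initiation factors gave 13 sites at 9 genes, of which EIF2A had the only methylated reads. No methylated read was thus seen at 92.3% of the 13, beside 91.8% of all sites. Subunits of eIF3, the large complex that holds the small subunit during initiation, accounted for 7 of them. EIF3L was read in 2 libraries near its TSS, with 0 of 5 reads at an E-box 472 bp away and 0 of 4 at the GR half-site 3499 bp away. EIF3M was also read in 2, with 0 of 5 at 26857 bp in BMAL1-CLOCK anti-Flag and 0 of 4 at 51908 bp in GR anti-Flag. No methylated read was seen at either eIF3 gene with either factor. EIF3E had 2 IgG cytosines 74 bp apart and EIF3F 1, all with 0 of 4 reads. EIF2B3, a subunit of the exchange factor of eIF2, had 0 of 4 reads at 2528 bp in the IgG control, the only IgG site within 5 kb. EIF4G3, a scaffold of the cap-binding complex, EIF1B, which acts in start codon choice, and EIF5AL1, a relative of EIF5A, had 1 site each with 0 of 4 reads methylated.

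The kinases, with the kinase-like RPS6KC1 among them, had 11 sites at 8 genes over all libraries and none at 50%. That count allows a share of up to 27.3%, beside 1.24% of all sites, so it sets these genes apart in no way. EIF2AK3, which slows initiation under stress of the endoplasmic reticulum, had 1 of 5 reads methylated in BMAL1-CLOCK anti-Flag (20%, interval 0.505 to 71.6%, 48534 bp, exact p = 0.06 before adjustment) and 0 of 4 in GR anti-Flag (28064 bp). RPS6KA3, a growth-signalling kinase, had 1 of 4 in the IgG control (25%, interval 0.631 to 80.6%, 47920 bp). Its relatives RPS6KA2 and RPS6KA5 were each read once in GR anti-Flag and once in the IgG control, always with 0 methylated reads. The same held for the single sites of RPS6KA1 (4 reads) and EEF2K, the kinase of the elongation factor eEF2 (5 reads). Single methylated reads thus occurred at kinase sites in both the IgG and BMAL1-CLOCK libraries, and none passed the test.

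The files also allowed the chromosome of each site to be compared with that of the gene it was assigned to, as RefSeq gives it. All 34 symbols could be matched. Of the 63 sites, 3 lay on another chromosome than the gene (4.76%, exact interval 0.993 to 13.3%), beside 42 of the 11278 sites with a matched symbol in all tables (0.372%). All 3 were at subunits of the elongation factor eEF1: EEF1A1, and EEF1B2 and EEF1G, which belong to the complex that reloads it with GTP. Their levels differed, as only EEF1A1 was methylated.

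The EEF1A1 site with 36 reads was on chromosome 9, while the gene is on chromosome 6. Over all libraries and motifs, the nearest other cytosines were assigned to GFI1B (49472 bp away, 0 of 4 reads) and ABO (270581 bp away, 0 of 7 reads). Either may thus come from another library or motif than the EEF1A1 site. In RefSeq a pseudogene of EEF1A1, EEF1A1P5, lies between GFI1B and ABO. The EEF1G site was on chromosome 7 (position 132366067, 5142 bp from the assigned TSS, 0 of 4 reads), while the gene is on chromosome 11, and RefSeq names no copy of EEF1G between the neighbouring PODXL and EXOC4. The EEF1B2 site was on chromosome X (position 24772409, 55260 bp, 0 of 4 reads, BMAL1-CLOCK anti-Flag), while the gene is on chromosome 2. Processed copies of these genes are common: RefSeq names 50 pseudogenes of EEF1A1 and 8 each of EEF1G and EEF1B2. Reads of a near-identical copy and of its gene may not be told apart by alignment, so the place of the reads assigned to EEF1A1 on chromosome 9 is uncertain, and whether they came from the gene was not tested.

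Counting the pseudogene symbols as well, 15 of the 63 sites (23.8%) lay on another chromosome or were assigned to a pseudogene. The same share over all sites was not counted, so whether 23.8% is high is not known. The 12 sites at these symbols lay on the chromosome RefSeq gives for the pseudogene itself and had 1 methylated read in 50 (2%, beside 2.96% of reads at all sites). EIF3IP1 had 5 of them in 3 libraries, from 37816 to 483563 bp, and that read was its own, 1 of 4 at an AGAACA cytosine of GR anti-Flag (25%, interval 0.631 to 80.6%, exact p = 0.0747 before adjustment). RPS26P11 had 3, with 0 of 13 reads, and RPL13AP3 2, with 0 of 8. RPL13A_6_816 is RPL13AP17 in RefSeq, and EEF1AL7, with 0 of 4 reads at 2328 bp in BMAL1-CLOCK anti-Flag, is EEF1A1P9. No methylated read was thus seen near that EEF1A1 copy, though at an E-box, in another library and with 4 reads.

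For coverage, the chromosome 9 site of EEF1A1 stood out among the 63. In the whole TGTTCT table of GR anti-Flag 17 sites had more reads, of which only 1 at FN1 was highly methylated (67 of 67 reads). Most of the 17 were mitochondrial or at NR3C1, the gene of GR, and DNMT3A, both transfected (NR3C1 7 of 3393 reads). The others were at GUSBL2, GGT8P, FN1 and RNF208, so the 17 are a poor measure for ordinary chromosomal sites. Of the 108 highly methylated sites, 19 had at least 10 reads. On chromosome 6 the EEF1A1 site was alone too. The nearest cytosines listed in any library or motif were 45855 and 247050 bp away, at 0 of 4 reads each.

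RefSeq's EEF1A1 promoter is shown because a methylated cytosine was assigned to this gene, 63 bp from its hg18 TSS. RefSeq's promoter window, from 250 bases before to 50 after the start, holds 1 GR half-site, in the stretch at chr6:73520991-73521020 (GRCh38.p14, minus strand, which is the strand of the gene), with the half-site in capitals.
EEF1A1: gggtttgccgccAGAACAcaggtaagtgcc
It reads AGAACA on the gene's strand from 25 to 30 bases after the start, whereas the methylated cytosine was listed for TGTTCT on the minus strand. The measured half-site is therefore not the one printed, and its TSS in the tables, on hg18, need not be RefSeq's start. Of the 34 windows found for 25 of these genes, 3 held AGAACA or TGTTCT on either strand (8.82%: EEF1A1, EEF1B2 and RPS6KA3), beside 14.8% of all 35116 windows.

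In the GR tables the half-site is written in capitals at some sites and in lower case at others. Lower case was taken to mark masked repeats, as is usual for genome sequence, but its meaning is an assumption. It was found at 14 of the 33 GR anti-Flag sites (42.4%, beside 43.9% of all sites of the library) and at 9 of 15 in the IgG control (60%, beside 62.6%). Of the 14 in GR anti-Flag, 9 were far sites of RPS29, RPL10L and EIF3IP1, and of the 10 sites within 5 kb, 1, at EIF3L, was in lower case, beside 30.4% of all sites of the library at that distance. The E-box table does not give the case.

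Other genes of translation and of abundant transcription were counted from lists. These were drawn up with earlier results of these data known, so they are no independent support. Mitochondrial ribosomal proteins, which serve the separate ribosome of mitochondria, had 19 sites at 12 genes in GR anti-Flag, of which 3 were highly methylated and above background (15.8%, exact interval 3.38 to 39.6%), beside 1.5% of all sites of the library at 50% or above. These were 2 TGTTCT cytosines at MRPL34, each with 4 of 4 reads (924 and 936 bp, adjusted p = 2.95e-05 by the exact binomial test), and 1 at MRPL44 with 6 of 7 reads (18308 bp, adjusted p = 2.09e-07, same exact test). The MRPL34 cytosines lay close enough to have been read on the same fragments, so the interval, which counts them as separate sites, may be too narrow. Aminoacyl-tRNA synthetases, which charge tRNAs, had 8 sites in the same library and no methylated read in 32, where 96.9% of all sites had none. Of 31 other abundantly transcribed genes, listed as having known processed copies, only 3 had a site in any library. The GR anti-Flag sites among these were 1 at GAPDH, of glycolysis (14 of 15 reads, 384 bp), and 2 at ACTG1, a cytoskeletal actin (14 of 14 reads at 1661 bp and 13 of 14 at 1546 bp), all highly methylated and with adjusted p-values of 9.36e-20, 6.95e-21 and 3.27e-18 in that order by the exact binomial test. The ACTG1 cytosines lay close enough to have been read on the same fragments. BMAL1-CLOCK anti-Flag had 1 site of this list, with 0 of 4 reads at 13750 bp. Sites at 50% or above within 5 kb of a TSS were seen in GR anti-Flag at MRPL34, GAPDH and ACTG1, as at EEF1A1, RPL15 and EIF2A. Whether abundantly transcribed genes differ from the library's other sites within 5 kb was not tested. The synthetases had 3 sites at that distance, too few to show a share such as the 4.15% of all sites.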

How the data were processed

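BisChIP-seq reads of HEK-293T cells were processed by the authors, who merged the runs of each library, aligned to hg18 with Bismark, discarded duplicates (SAMtools) and required 4 reads per cytosine. The 6 deposited tables hold, per cytosine, the raw counts of methylated and total reads, with position, strand, nearest gene and unsigned TSS distance. The authors took TSSs from an hg18 gene database; its name and the tool versions are not stated. The sequence column of both GR tables is written as AGAACA, so the motif was taken from the table's name.

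Repeated rows were dropped (9 of 72 member rows). The level of a site is its percent of methylated reads. A site was above background where its adjusted p was under 0.05 in a binomial test (exact, one-sided) that took as null the pooled level of that library and motif (Benjamini-Hochberg over the table). Strands were checked at 48 half-sites listed on both strands, and the positions fitted all 48. Intervals are exact Clopper-Pearson (95%), and beside a 0 stands the limit from 3 counts; both cover counting error only. Symbols were matched to RefSeq (GRCh38.p14), of which the chromosome and gene order alone were used, beside its promoter windows. All sites at 50% or above, the best-covered and TSS-nearest sites, and genes in several libraries are named. Members, lists and tests were chosen with earlier results of these data known. The binomial test was tested on simulated data. Python 3.11.15, pandas 2.3.3, scipy 1.17.1 and matplotlib 3.10.9 were used.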

Additional observations from a re-analysis of the deposited data

How the results depend on the processing

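Of 52 alternatives, 45 moved their result by less than its error or spread. Many of these could hardly do otherwise. The highly methylated share was 0 in the IgG control and in BMAL1-CLOCK anti-Flag, where a stricter threshold or fewer sites could give only 0. In GR anti-Flag the interval of the share was wide, 3.4 to 28.2%. The count of 45 is therefore no measure of stability. A minimum of 8 or 10 reads left 1 site at these genes, the chromosome 9 site of EEF1A1, so the highly methylated share in GR anti-Flag became 100% in place of 12.1%, its median distance 603 bp, its share on another chromosome 100% and the sites above background 1 in place of 3. No site remained in the IgG or BMAL1-CLOCK libraries at these minimums, which gave no value there. Alternatives chosen after seeing the data moved the share to 40% within 5 kb of a TSS. Adding the sites at pseudogene symbols, which lay on the pseudogene's own chromosome, to those on another chromosome gave 23.8%. Without EEF1A1 the share was 6.45%. The median distance in GR anti-Flag, 51908 bp, had a wide spread, and fell to 5142 bp within 100 kb and 16554 bp without RPS29. No paired analysis was possible because each group has 1 library. Most sites have 4 or 5 reads, so levels under 50% are hardly resolved.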
